A study of Mus musculus with 2 samples.

Results

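Enzymes that build, activate, burn and cleave fatty acids and phospholipids were examined in tumours that Colon26 cells, from a mouse carcinoma of the colon, formed in Balb/c mice. The set holds the acyl-CoA synthetases, dehydrogenases, thioesterases and oxidases, the carnitine palmitoyltransferases, the fatty acid binding proteins, fatty acid synthase with the elongases and desaturases, and the enzymes of HMG-CoA. It also holds the phospholipases A2, the ecto-nucleotide pyrophosphatases (Enpp), the receptors of lysophosphatidic acid, the peroxins and the peroxisomal ABC transporters. Members were chosen by gene symbol, after old names were brought up to date. Of 108 such genes on the array, 92 had a value on both arrays, out of 13506 named genes in all, and these 92 were analysed.

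Cells were placed by injection into the submucosa of the rectum. The question addressed is how expression in the primary tumour compares with that in its metastases in the liver. Each of 2 two-colour arrays set 1 primary tumour, labelled with Cy5, against 1 liver metastasis, labelled with Cy3, and the tumours of the 2 arrays were grown and taken independently. Both tissues therefore held the same injected line in the same mouse strain, with no other treatment named, and no age, sex or time after injection is given in the sources used here. Whether host cells were removed before RNA extraction is not given either, and in tissue RNA fewer cells of a type and less RNA per cell cannot be told apart. Values are the deposited log ratios of the 2 channels, taken as log2. The numerator of the ratio is not stated, so results are given as the positive and the negative side, and no side is assigned to the tumour or the metastasis. Both arrays carried the dyes the same way round, so a bias of a probe towards a dye and a difference between the tissues cannot be told apart.

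Fatty acids enter metabolism as acyl-CoA. They are made in the cytosol by acetyl-CoA carboxylase and fatty acid synthase, lengthened by elongases and given double bonds by desaturases. They are broken down in mitochondria, after passage through the carnitine shuttle, or in peroxisomes when the chain is very long or branched. Phospholipases A2 release fatty acids and lysophospholipids from membranes. Arachidonic acid set free in this way feeds prostaglandin and leukotriene synthesis, and autotaxin, encoded by Enpp2, turns lysophosphatidylcholine into the signalling lipid lysophosphatidic acid (LPA).

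The members with the widest ratios were Enpp2, the peroxisomal transporter Abcd2 and the secreted phospholipase Pla2g2a, all on the positive side. Enpp2 had log ratios of 3.51 on array 1 and 2.23 on array 2, Abcd2 had 3.39 and 2.26, and Pla2g2a had 2.71 and 2.33. By their means they ranked 4, 5 and 7 on the positive side of all 13506 genes. Against them stood a run of lipid synthesis genes on the negative side, led by Scd2, a stearoyl-CoA desaturase, at -1.03 and -1.13. Its neighbour Scd3 went the other way, at 1.22 and 1.00.

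These 5 genes were the members that passed limma's moderated test with an adjusted p under 0.05 (Benjamini-Hochberg over all genes), 4 of them positive and 1 negative. That is 5.43% of the members, against 2.90% of all genes, of which 2.12% were positive and 0.777% negative. An unadjusted p under 0.05 was met by 31 members, or 33.7%, against 27.5% of all genes. The median of the members was -0.09, beside -0.02 for all genes. On both arrays 30 members were positive and 37 negative, which is 32.6% and 40.2% against 33.9% and 38.2% of all genes, and 25 members had mixed signs. Counts for the families and lists below are to be set against these shares of all genes. Ratios 1 log2 unit or more from 0 on each array were met on the positive side by Enpp2, Abcd2 and Pla2g2a, or 3.26% against 1.69% of all genes, and on the negative side by Scd2, or 1.09% against 0.578%. Scd3 was just under that size on array 2, at 0.999997, and passed it after centring each array on its median, which makes 5 members. Those 4 members compare with 7 past that size on array 1 alone and 6 on array 2 alone. Most members lay close to 0: 64 of 92 had a mean within 0.5 of it, or 69.6%, against 78.2% of all genes. Over the members, which are genes and not replicates, Pearson's r between the arrays was 0.81, and 0.64 over the 89 members other than Enpp2, Abcd2 and Pla2g2a. Over all genes it was 0.61. The 2 arrays had the same sign for 72.8% of the members and 72.2% of all genes.

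The calls of all 5 depended on how the arrays were scaled. After scaling the arrays to equal spread, after quantile normalization or without moderation of the variance, limma called 0 members, with 31, 31 and 12 at an unadjusted p under 0.05. The 6 calls among the companion genes described further on were lost in the same 3 settings. A test for a change beyond 1.2-fold, and a fit on probes in place of genes, left Enpp2, Abcd2 and Pla2g2a called and not Scd2 or Scd3. Of the companions, the former left 0 called, with 24 at p below 0.05 before adjustment, and the latter left Ptgs1. Around the threshold, Scd2 and Scd3 passed with adjusted p of 0.0443 and 0.0448 in limma's test, and the next members, Scd1, Acsm2 and Fasn, had 0.0599, 0.0616 and 0.0777. Among all genes 391 passed.

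**Figure D1:**
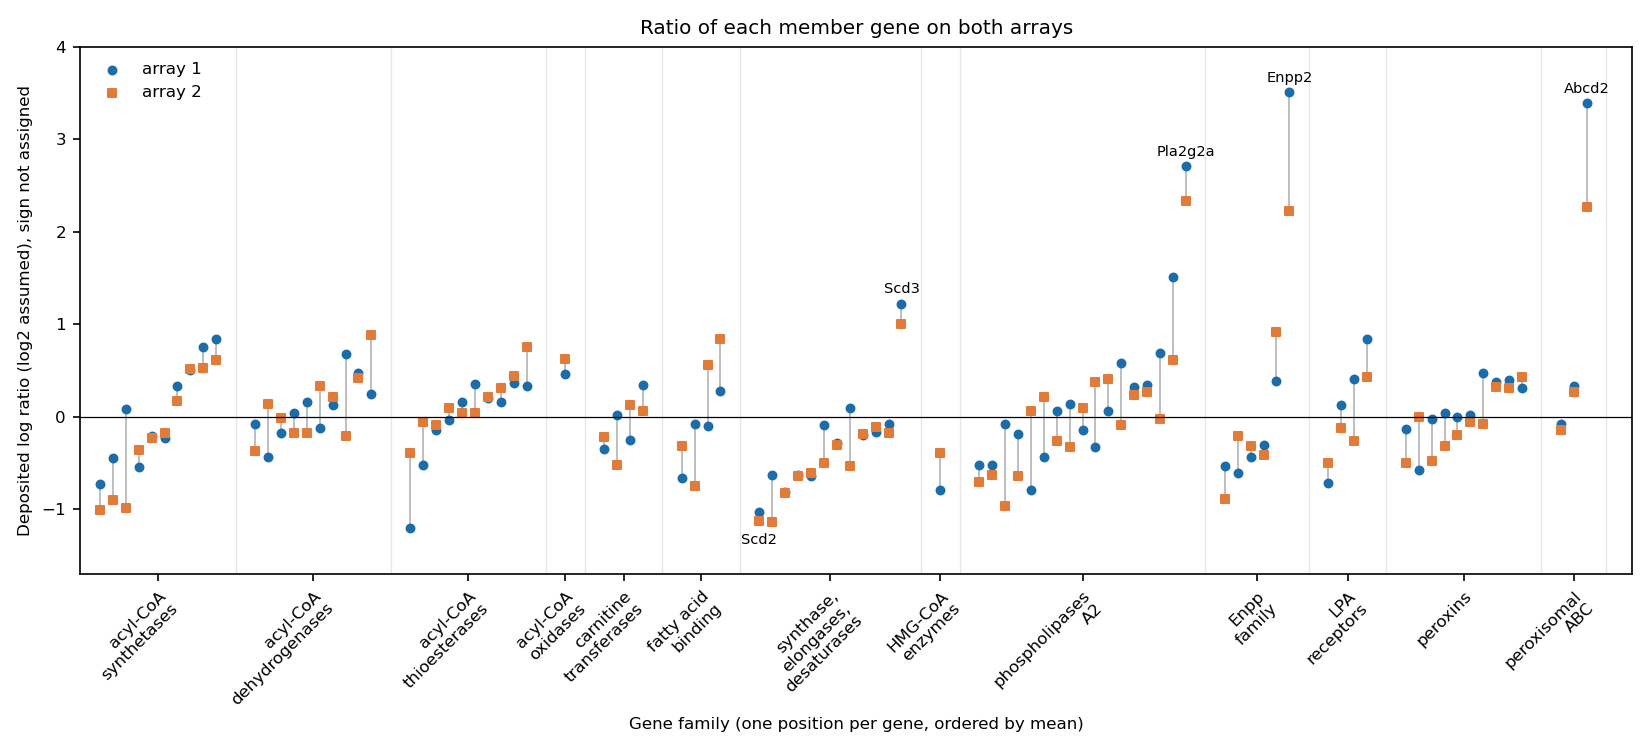
Log ratio (vertical axis, log2 assumed) of each of the 92 member genes, grouped by family along the horizontal axis; circles are array 1, squares array 2, a grey line joins the values of a gene, and labels mark the 5 genes past the threshold. Enpp2, Abcd2 and Pla2g2a lie above 2 on both arrays, and most other members lie within 1 unit of 0.

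**Figure D2:**
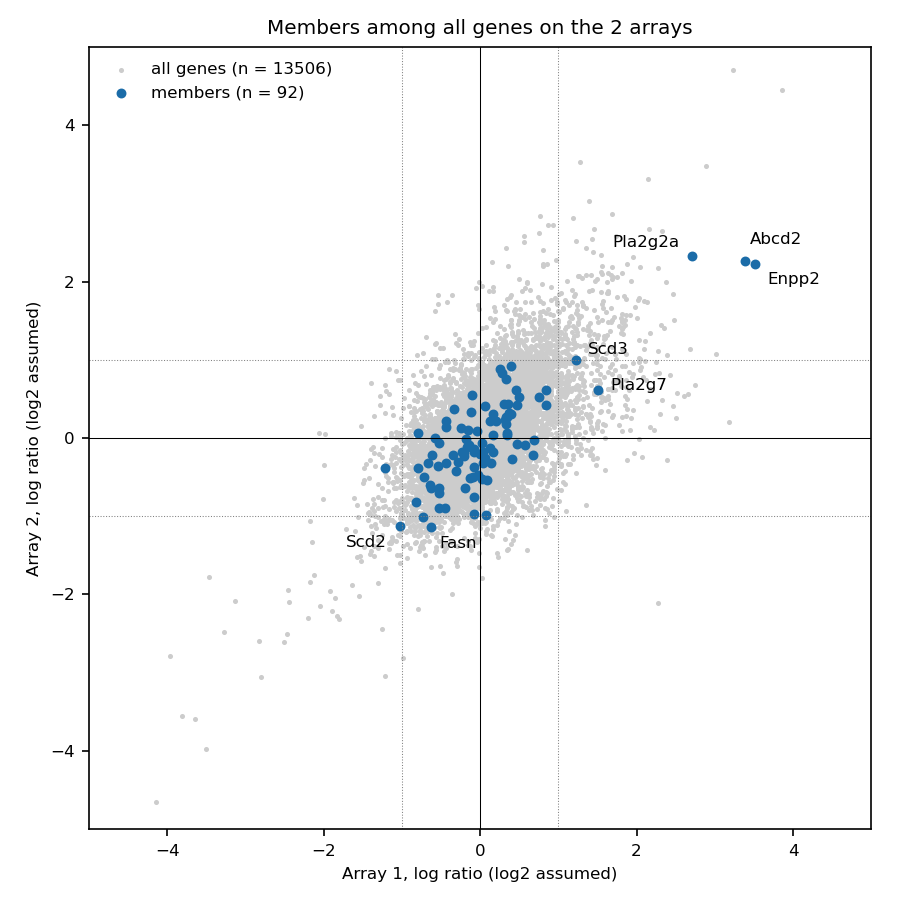
Log ratio on array 1 (horizontal) against array 2 (vertical), log2 assumed, for all 13506 genes (grey) and the 92 members (blue); dotted lines mark 1 log2 unit. Enpp2, Abcd2 and Pla2g2a stand at the upper right edge of all genes, and Scd2 is the 1 member past 1 unit on the negative side of both arrays.

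Fatty acid synthesis lay mostly on the negative side. Of the 12 measured genes for fatty acid synthase, elongases and desaturases, 10 had negative values on each array, 1 had positive values and 1 had mixed signs, with a median of -0.29. The called genes were Scd2 on the negative and Scd3 on the positive side, and 6 of the 12 had an unadjusted p under 0.05. In limma's test 2.90% of all genes were called and 27.5% had an unadjusted p under 0.05, and 38.2% were negative on both arrays. The stearoyl-CoA desaturases place the first double bond into saturated fatty acids, and the mouse has 4 of them side by side on chromosome 19. Scd2, widely expressed, had a mean of -1.08 ± 0.07 (SD, n = 2), which is 2.11-fold for a log of base 2, with a 95% limma interval from -1.47 to -0.69. Scd1, the main liver and fat isoform, had -0.82 on both arrays, with an interval from -1.21 to -0.44. That interval left out 0, which is the same as an unadjusted p under 0.05, and the adjusted p of Scd1 missed the threshold. Scd4, the heart isoform, had -0.63 and -0.64 (limma adjusted p = 0.0899). Scd3, the isoform of sebaceous glands, had 1.11 ± 0.16, with an interval from 0.71 to 1.51. The gap between Scd3 and Scd2 was 2.25 on array 1 and 2.13 on array 2, that to Scd1 2.04 and 1.82, and that to Scd4 1.85 and 1.64. So all 3 neighbours lay on the opposite side from Scd3 on both arrays. The 4 genes are close in sequence, and a probe of any of them may also read another.

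Fasn, the synthase that makes palmitate, had -0.63 on array 1 and -1.13 on array 2, with a mean of -0.88 ± 0.36 (SD, n = 2) and a limma interval from -1.36 to -0.40. It was negative on both arrays, with a wider spread than the Scd genes. The desaturases of polyunsaturated fatty acids form another cluster on chromosome 19. Their values were -0.08 and -0.17 for Fads1, the delta-5 desaturase, and 0.09 and -0.54 for Fads2, the delta-6 desaturase. Fads3, the neighbour with less well known substrates, had -0.64 and -0.61. It falls outside the rule for named genes and is given to complete the cluster. Elovl6, the elongase that turns palmitate into stearate, had -0.09 and -0.50, and the other elongases measured on both arrays, Elovl1, Elovl3 and Elovl5, lay between -0.11 and -0.30 on each. None of the elongases passed the threshold. Hmgcll1, a lyase that splits HMG-CoA, was the only gene of the HMG-CoA enzymes in the set, at -0.79 and -0.39.

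The regions just upstream of the start sites of Fasn, Scd3 and Scd4 are shown because Fasn and Scd4 lay on the negative side and Scd3, a neighbour of Scd4, on the positive side. Each is the 250 bases before the start, 5′ to 3′ on the gene's strand, from RefSeq on build GRCm38.p6: chr11:120824548-120824797 on the minus strand for Fasn, chr19:44203038-44203287 on the plus strand for Scd3 and chr19:44333076-44333325 on the plus strand for Scd4. These are the reference strain's sequences, not those of the Balb/c mouse. No upstream sequence was available for Enpp2, Abcd2, Pla2g2a, Scd1 or Scd2. Capitals mark CCAAT, the core bound by NF-Y, on either strand in Fasn, and TTTAAA, an AT-rich box, in Scd3 and Scd4.
Fasn: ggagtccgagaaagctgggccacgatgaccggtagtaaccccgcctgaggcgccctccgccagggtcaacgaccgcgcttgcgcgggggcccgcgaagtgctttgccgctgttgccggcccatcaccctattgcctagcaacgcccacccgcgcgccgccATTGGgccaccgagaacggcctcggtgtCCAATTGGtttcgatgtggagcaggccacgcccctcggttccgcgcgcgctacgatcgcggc
Scd3: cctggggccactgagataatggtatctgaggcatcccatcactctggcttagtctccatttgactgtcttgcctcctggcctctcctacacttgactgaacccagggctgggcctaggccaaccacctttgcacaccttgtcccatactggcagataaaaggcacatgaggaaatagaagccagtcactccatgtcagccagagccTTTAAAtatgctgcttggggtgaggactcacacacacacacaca
Scd4: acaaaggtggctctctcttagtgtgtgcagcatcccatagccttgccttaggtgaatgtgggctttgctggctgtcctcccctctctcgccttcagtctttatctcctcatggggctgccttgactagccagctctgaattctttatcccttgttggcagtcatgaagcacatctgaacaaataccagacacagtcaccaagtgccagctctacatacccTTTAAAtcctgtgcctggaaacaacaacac
Fasn holds 3 matches to CCAAT, which begin 90, 62 and 59 bases before the start, and the last 2 overlap. TTTAAA begins 44 bases before the start of Scd3 and 30 bases before that of Scd4, so the members of the pair with opposite signs share it. Of 92 members, 73 had such a window, some of them several. CCAAT occurred in 41.6% of the members' 89 windows and in 33.8% of all 32851 windows of the table, and TTTAAA in 15.7% and 12.1%. The PPAR response element, a direct repeat of AGGTCA with any 1 base between, occurred in 0 of the 89 and in 0.0335% of all windows. The sterol response element TCACNCCAC occurred in 3 of the 89, or 3.37%, against 1.05% of all, in the windows of Acsl1, Fabp6 and Pla2g12a. Both strands were searched. A match is a run of letters and not a shown binding site.

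The other genes of the pathway were taken from lists of companions, which hold no member. Of 14 lipogenesis genes, 13 were measured, and 10 of them had negative values on each array, 1 had positive values and 2 were mixed, with a median of -0.33. Limma called 2, both negative. Over all genes 38.2% were negative on both arrays and limma called 2.90%. Acaca, the acetyl-CoA carboxylase that commits carbon to fatty acids, had -0.99 and -1.01 (adjusted p = 0.0475), and Dgat2, the last step of triglyceride synthesis, had -1.19 and -1.06 (adjusted p = 0.0438). In 10 alternative settings Acaca stayed called in 3 and Dgat2 in 5. The 10 include a natural log, which leaves limma's p-values unchanged and so keeps every call. Lpin1, a phosphatidate phosphatase, had -0.68 and -0.84 and did not pass. Of 14 measured regulators of lipid genes, 0 passed limma's test, while 9 reached p below 0.05 before adjustment, against 27.5% of all genes. Srebf1, the transcription factor that drives Fasn, Scd1 and Acaca, had -0.87 and -1.05 (limma adjusted p = 0.051). Rxra, the partner of many lipid-sensing nuclear receptors, had -0.64 and -0.68, while Ppargc1a, a coactivator of oxidative metabolism, had 0.91 and 1.76 (limma adjusted p = 0.0599). Ppargc1a passed with the probe farthest from 0 in place of the mean of its probes (limma adjusted p = 0.0417) and in the fit on probes (0.0488). Sterol synthesis divided: 8 of the 14 measured were negative on both arrays and 4 positive. None passed limma's test, while 4 reached p below 0.05 before adjustment, against 27.5% of all genes. Sqle, squalene epoxidase, had -0.38 and -1.17, whereas Mvk, mevalonate kinase, had 0.54 and 0.68, and Idi1, isopentenyl diphosphate isomerase, 0.85 and 0.40.

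**Figure D3:**
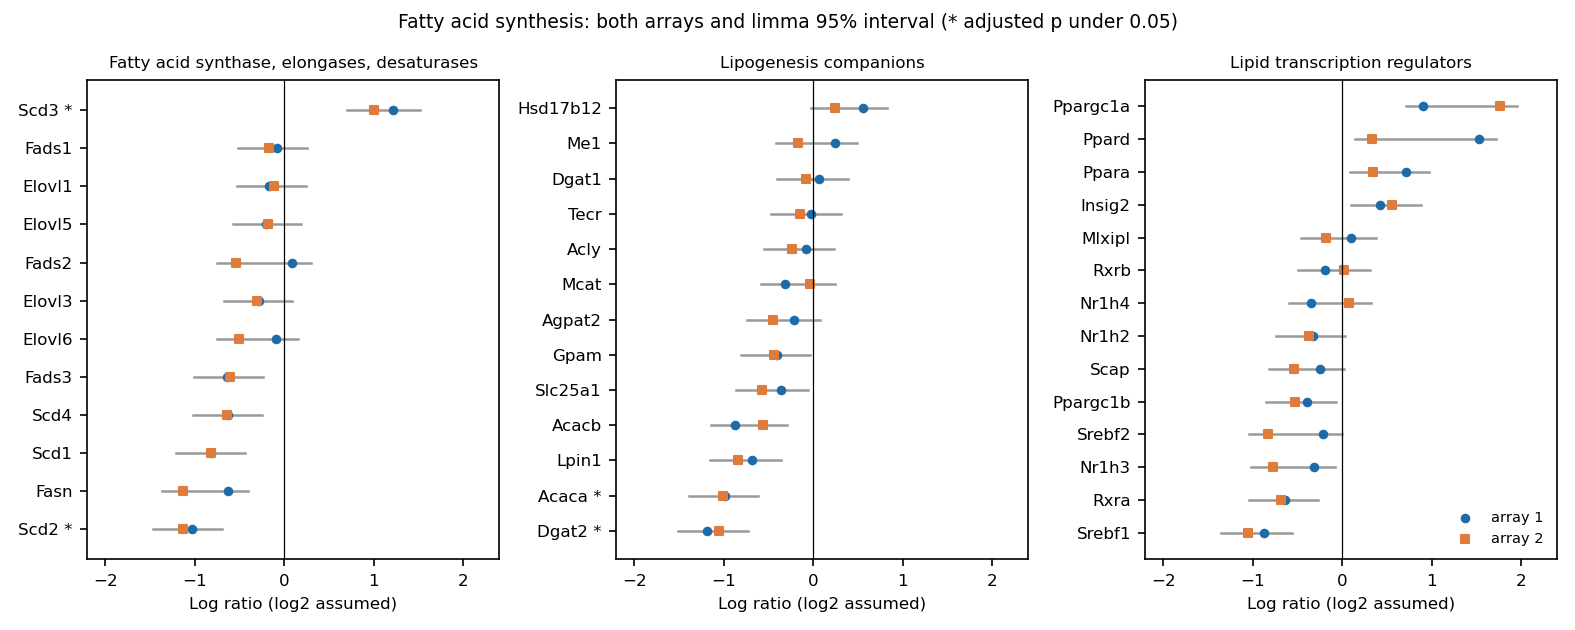
Log ratio (horizontal axis, log2 assumed) of each gene of fatty acid synthesis and its regulators; circles are array 1, squares array 2, grey bars the 95% limma interval of the mean, and an asterisk marks an adjusted p under 0.05. Of the 12 genes in the left panel 10 lie left of 0 on both arrays, and Scd3 alone lies right of it on both.

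Fatty acid binding proteins carry fatty acids within cells, and each is typical of a tissue. Of 9 on the array 4 were measured on both. None passed limma's test, while 2 reached p below 0.05 before adjustment, against 27.5% of all genes. Fabp4, the protein of fat cells, endothelium and macrophages, had 0.28 and 0.84, and Fabp6, the bile acid binding protein of the ileum, -0.66 and -0.32. Fabp1, the protein of hepatocytes and enterocytes, had -0.08 and -0.75, a mean of -0.42 ± 0.48 (SD, n = 2). Both Fabp1 values were negative, and the interval from -0.96 to 0.13 held 0. Hepatocyte markers showed no common side: of 14 measured, 2 had positive and 4 had negative values on each array, with a median of 0.00 and a range from -0.95 to 0.80. Adipocyte markers had a median of -0.41 over 4 measured, 3 of them negative on both, opposite in sign to Fabp4. Colonic epithelium markers had a median of 0.10 over 11 measured. Levels in a single tissue cannot be had from ratios, so whether these defining markers were present at all is unknown. Of 11 companions for uptake and storage, 0 passed limma's test, while 0 reached p below 0.05 before adjustment, and they ranged from -0.29 to 0.18. Mgll, Pnpla2 and Plin3, which work on stored fat, had means of -0.29, -0.22 and -0.12.

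The acyl-CoA synthetases, which activate fatty acids, spread to both sides. Of 10 measured, 4 had positive and 5 had negative values on each array. None passed limma's test, while 6 reached p below 0.05 before adjustment, against 27.5% of all genes. The medium-chain synthetases lie in a cluster on chromosome 7 and differed most. Acsm2 had -0.73 and -1.01, while its direct neighbour Acsm1 had 0.84 and 0.62, and Acsm3, separated by 3 genes, had 0.75 and 0.53. The limma intervals were -1.29 to -0.45 for Acsm2 and 0.32 to 1.13 for Acsm1, and neither gene passed after adjustment (limma adjusted p = 0.0616 and 0.0801). An interval that leaves out 0 is the same as an unadjusted p under 0.05, which 27.5% of all genes met. Acsm5, at the far end of the cluster, had 0.08 and -0.99 and is named only to complete it. Among the long-chain synthetases, Acsl1, the main form of liver, fat and heart, had 0.50 and 0.52, and Acsl4, which prefers arachidonic acid, had 0.33 and 0.17. The 5 synthetases not named by the rule had means from -0.67 to -0.20.

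Thioesterases undo this step and release the free fatty acid from CoA. Of 10 measured, 6 had positive and 3 had negative values on each array. None passed limma's test, while 3 reached p below 0.05 before adjustment, close to the 27.5% of all genes. Acot4, a peroxisomal thioesterase for succinyl-CoA, had -1.21 on array 1 and -0.39 on array 2. It lies beside Acot3 on chromosome 12, which had -0.04 and 0.09, and near Acot6, which had 0.20 and 0.21. Acot13 had 0.33 and 0.76 and Acot10 0.36 and 0.44, both positive on each array. The means of the 5 others ranged from -0.29 to 0.24.

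Mitochondrial oxidation showed small ratios. The acyl-CoA dehydrogenases carry out its first step, each on its own chain length. Of 10 measured, 3 had positive values on each array, 2 had negative values and 5 were mixed, with a median of 0.05. None passed limma's test, while 2 reached p below 0.05 before adjustment, against 27.5% of all genes. Acadl, the long-chain enzyme, had 0.47 and 0.42, and Acad10 had 0.25 and 0.88. Acadm, the medium-chain enzyme, had 0.04 and -0.18, Acadsb 0.13 and 0.21, and Acad11 -0.08 and -0.38. The carnitine palmitoyltransferases bring long chains across the mitochondrial membranes. Cpt1a, the liver form and the rate-setting step, had 0.34 and 0.06, and Cpt2, on the inner membrane, -0.35 and -0.22. Of the 4 measured, 0 passed limma's test, while 0 reached p below 0.05 before adjustment. The 95% limma intervals were -0.21 to 0.62 for Cpt1a and -0.68 to 0.11 for Cpt2. They rest on the variance as moderated over all genes, with 1 residual degree of freedom per gene. Nor do they cover a bias of a probe towards a dye, so they set no firm bound on a change.

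Companions of mitochondrial oxidation also stayed below the threshold. Of 15 measured, 7 had positive and 6 had negative values on each array. None passed limma's test, while 5 reached p below 0.05 before adjustment, against 27.5% of all genes. Etfdh, which passes electrons from the dehydrogenases to the respiratory chain, had 0.88 and 0.95 (limma adjusted p = 0.0527), and Etfa, a subunit of its electron donor, had 0.60 and 0.62. Slc25a20, the carnitine carrier between Cpt1 and Cpt2, had 0.76 and 0.81. These were positive on both arrays with little spread, while the means of the whole list ran from -0.62 to 0.92.

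In the peroxisome, the transporter Abcd2 stood apart from the rest. Abcd2, which takes very long-chain and polyunsaturated acyl-CoA into the organelle, had a mean of 2.83 ± 0.80 (SD, n = 2), which is 7.09-fold for a log of base 2 (limma adjusted p = 0.0311, interval 2.08 to 3.57). The related transporters had far smaller ratios: Abcd3, the abundant peroxisomal membrane protein, had -0.08 and -0.15, and Abcd4, a lysosomal relative in vitamin B12 transport, 0.33 and 0.27. Abcd2 was higher on array 1 than on array 2 by more than any of these values. Acox3, an oxidase for branched chains, was the 1 acyl-CoA oxidase with a value on both arrays, at 0.46 and 0.62.

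The peroxins build peroxisomes and import their enzymes, and none of them moved far. Of 10 measured, 3 had positive values on each array, 3 had negative values and 4 were mixed, with a median of -0.06 and a range of means from -0.32 to 0.37. In limma's test 0 passed, while 0 reached p below 0.05 before adjustment. Pex3, which places membrane proteins, had 0.31 and 0.43, Pex7, the import receptor for the second targeting signal, 0.40 and 0.31, and Pex2, a ubiquitin ligase of the import machinery, 0.37 and 0.32. The values of Pex2 average 2 probes, 1 with 0.43 and 0.62 and 1 with 0.31 and 0.02. Pex14, the docking protein, had -0.13 and -0.50, and Pex5, the main import receptor, 0.00 and -0.20. Abcd2 thus lay on the positive side without a common shift of the genes for peroxisome assembly. Of 18 companions of peroxisomal oxidation and ether lipid synthesis, 7 had positive and 7 had negative values on each array. None passed limma's test, while 4 reached p below 0.05 before adjustment, against 27.5% of all genes. Phyh, which starts the breakdown of phytanic acid, had 0.71 and 0.78, Amacr, a racemase for branched chains, 0.45 and 0.81, and Pecr, a reductase, -0.47 and -0.41.

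**Figure D4:**
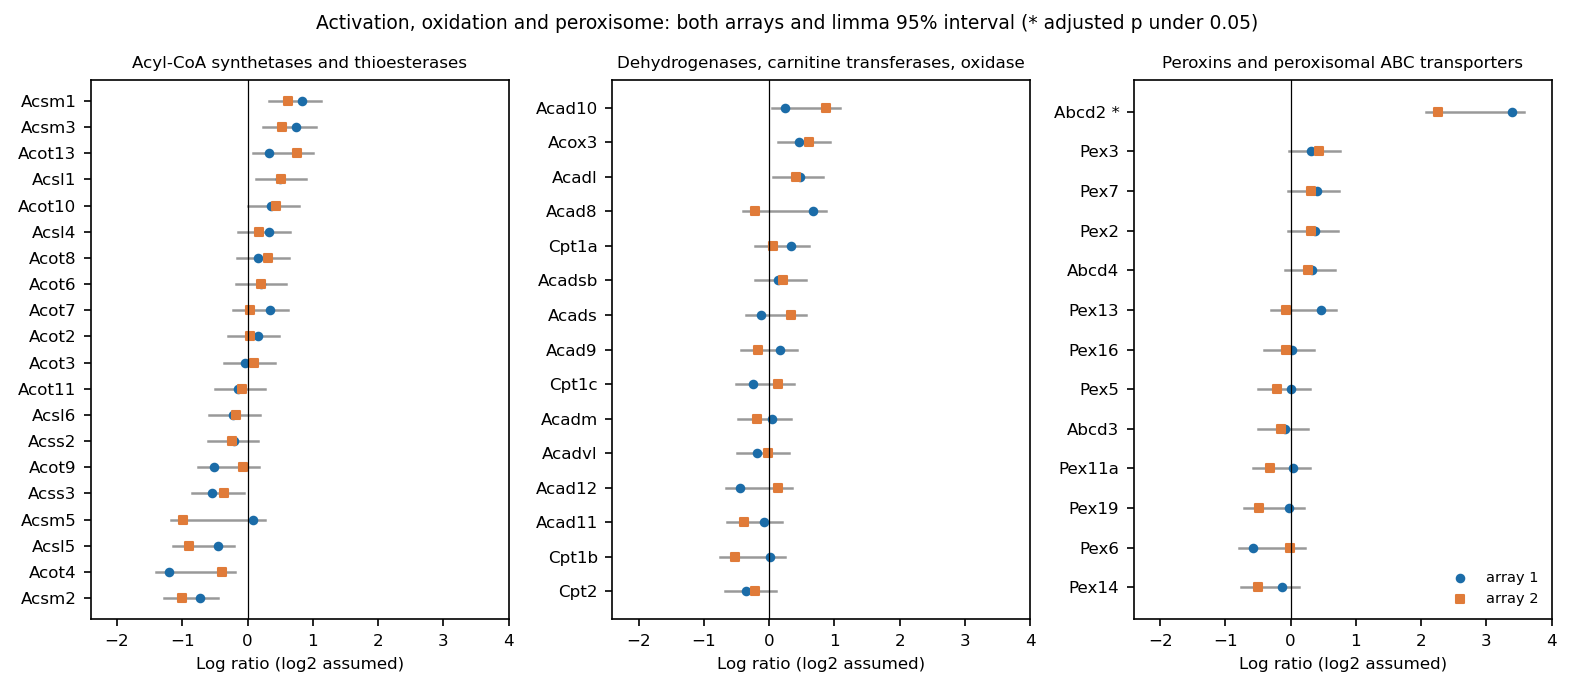
Log ratio (horizontal axis, log2 assumed) of the genes for fatty acid activation, oxidation and the peroxisome; circles are array 1, squares array 2, grey bars the 95% limma interval of the mean, and an asterisk marks an adjusted p under 0.05. Abcd2 lies above 2 on both arrays, and every other gene shown lies within 1.21 of 0.

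The phospholipases A2 were led by Pla2g2a, at 2.71 and 2.33. Its mean was 2.52 ± 0.27 (SD, n = 2), which is 5.74-fold for a log of base 2, and limma's 95% interval ran from 2.08 to 2.96 (adjusted p = 0.0235, the lowest among the members). Pla2g2a is a secreted enzyme of intestinal Paneth cells and inflamed tissue. It is known as the modifier Mom1 of intestinal tumours in mice. It is disrupted in C57BL/6 and intact in Balb/c, and the RefSeq table of the C57BL/6J genome lists it as a transcribed pseudogene, the only member of the 92 that is not listed as protein coding. Of 17 measured phospholipases A2, 5 had positive and 4 had negative values on each array and 8 mixed, with a median of -0.03. Limma called Pla2g2a, and 4 had an unadjusted p under 0.05, against 27.5% of all genes.

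The neighbours of Pla2g2a on chromosome 4 did not share its ratio. Pla2g2c had -0.52 and -0.63, and Pla2g2d, Pla2g5 and Pla2g2e, named to complete the cluster, had mixed signs with means of -0.37, 0.02 and -0.09. The mean of Pla2g5 turned to -0.0078 and -0.0055 after scaling to equal spread and quantile normalization. The values of Pla2g2e come from 2 probes, 1 with -0.14 and -0.09 and 1 with 0.42 and -0.56, which differ in sign on array 1. Next in size to Pla2g2a was Pla2g7, a secreted enzyme of macrophages that breaks down platelet-activating factor, at 1.51 and 0.61 (mean 1.06 ± 0.63, limma adjusted p = 0.089). It was positive on both arrays, but its spread was wide. Pla2g6, the calcium-independent enzyme, had -0.52 and -0.71. Pla2g4a, the cytosolic enzyme that supplies arachidonic acid, had 0.69 on array 1 and -0.02 on array 2. The probes of Pla2g1b, the pancreatic enzyme, disagreed, with means of 0.53 and -0.06. The 11 phospholipases not named by the rule had means between -0.53 and 0.30.

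Downstream of arachidonic acid, 10 of 20 eicosanoid companions were measured, and limma called 3, or 2 positive and 1 negative. Among all genes limma called 2.90%. The cyclooxygenases lay on opposite sides. Ptgs1, the constitutive form, had -1.31 and -1.30 (adjusted p = 0.0347), and Ptgs2, the inducible form, had 1.19 and 1.02 (adjusted p = 0.0438). Ptger4, the EP4 receptor for prostaglandin E2, was positive on both arrays, with 1.82 on array 2 and a mean of 1.51 ± 0.44 (SD, n = 2; limma adjusted p = 0.0438). Ptgs1 stayed called in 6 of 10 alternative settings, and Ptgs2 and Ptger4 in 5 each. The list as a whole showed no common side, with 5 positive and 4 negative on both arrays and a median of -0.03.

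Among the Enpp enzymes, which split phosphodiester bonds outside the cell, Enpp2 was the gene with the highest mean of all members. Its mean was 2.87 ± 0.90 (SD, n = 2), which is 7.31-fold for a log of base 2, and limma's 95% interval ran from 2.05 to 3.69 (adjusted p = 0.0333). Array 1 exceeded array 2 by more than the mean of any other gene of the family. Enpp4, which acts on nucleotides at the vessel wall, had 0.39 and 0.92. The other 4 measured were negative on both arrays: Enpp1, which makes pyrophosphate and breaks down cyclic GMP-AMP, had -0.53 and -0.89, Enpp7, the alkaline sphingomyelinase of the gut, -0.44 and -0.31, and the remaining pair lay between -0.21 and -0.61. The strong ratio was thus seen for the LPA-producing enzyme and not across the family. In limma's test 1 of the 6 passed, while 3 reached p below 0.05 before adjustment, against 27.5% of all genes.

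The receptors for LPA did not follow one side. Lpar6, also named P2ry5, had 0.84 and 0.42, while Lpar3 had -0.72 and -0.50. Lpar1, the most widely expressed, had 0.13 and -0.13, with a limma interval from -0.41 to 0.41, and Lpar2, the member of this family that the rule leaves unnamed, had a mean of 0.07. Of the 4 measured, 0 passed limma's test, while 2 reached p below 0.05 before adjustment, against 27.5% of all genes. Of 15 measured genes that turn over lysophospholipids, 3 had positive and 8 had negative values on each array, with a median of -0.24 and 1 call. This was Plpp2, a lipid phosphate phosphatase that can degrade LPA, at -1.03 and -1.60 (limma adjusted p = 0.0475), and it stayed called in 3 of 10 alternative settings. Agpat4, which acylates LPA, had 0.64 and 0.94, and Lpcat1, which acylates lysophosphatidylcholine, -0.49 and -0.48.

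**Figure D5:**
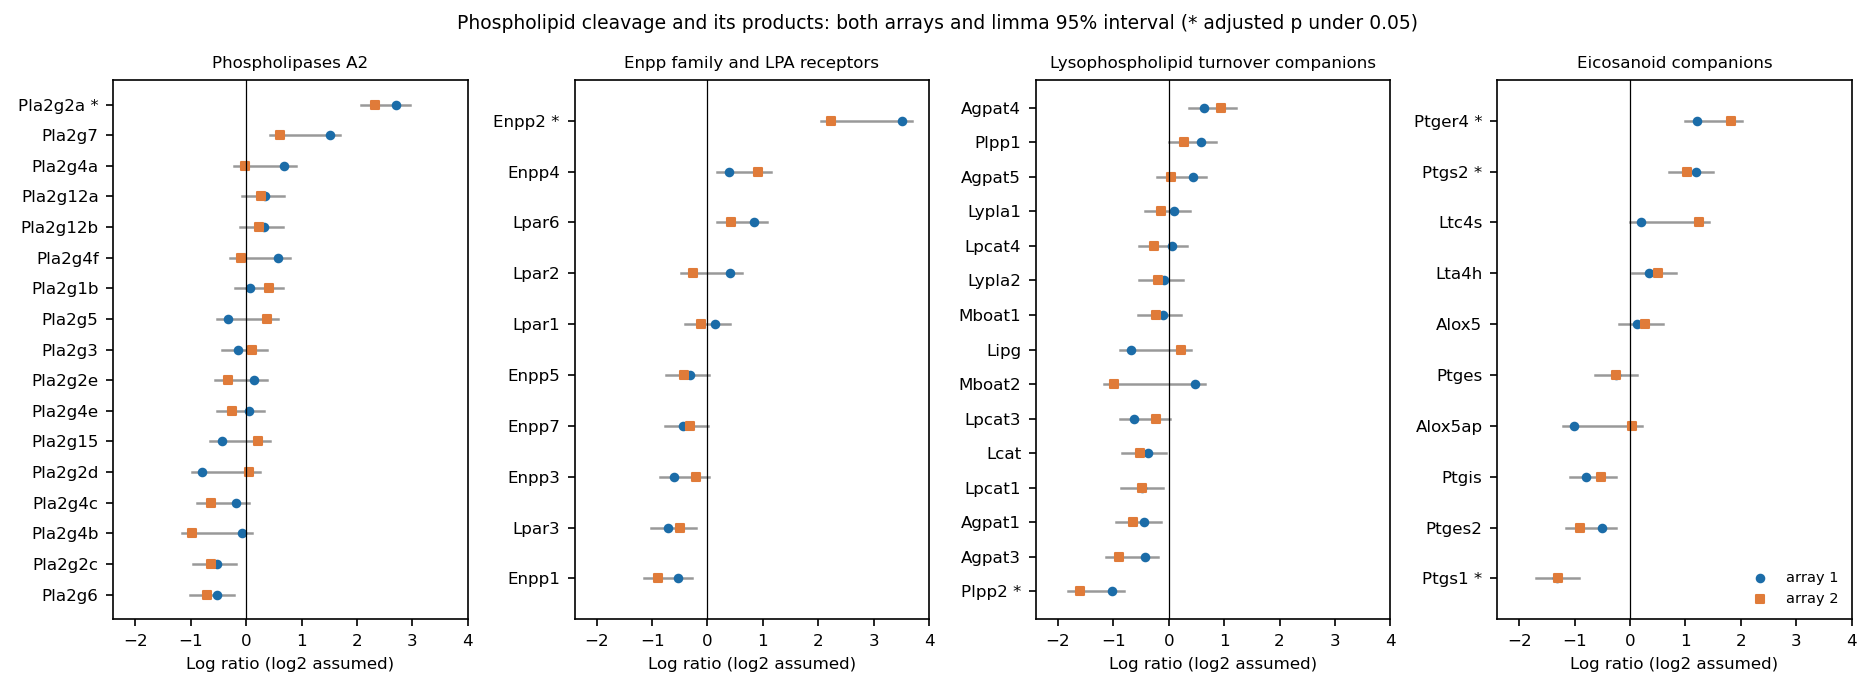
Log ratio (horizontal axis, log2 assumed) of the phospholipases A2, the Enpp enzymes with the LPA receptors, and the companions of lysophospholipid and eicosanoid metabolism; circles are array 1, squares array 2, grey bars the 95% limma interval of the mean, and an asterisk marks an adjusted p under 0.05. Pla2g2a and Enpp2 lie above 2 on both arrays, and Ptgs1 and Ptgs2 lie on opposite sides of 0.

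Autotaxin is also made by endothelial and fat cells, and Pla2g7 by macrophages. Endothelial markers lay mostly on the positive side. Of 9 measured, 7 had positive values on each array and 0 had negative values on each. Their median was 0.48, with a range from -0.32 to 1.25 and 2 calls. Adipocyte markers lay on the other side, with a median of -0.41 over 4 measured and 3 of them negative on both arrays. Over all genes 33.9% were positive on both arrays and limma called 2.90%. Of 8 measured macrophage and Kupffer cell markers 3 had positive and 3 had negative values on each array, with a median of -0.06, a range from -1.197 to 1.12 and 1 call, on the negative side. Neutrophil markers had a median of 0.37 over 5 and a range from -0.88 to 1.08. Skeletal muscle markers had a median of 0.26 over 7, with positive values on each array for 6, negative values for 1, and 1 call. The part of these cell types in the ratios of Enpp2, Abcd2, Pla2g2a and Pla2g7 was not tested.

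Of the 16 genes on the array without a value on both, 7 had none, namely Acot12, Elovl4, Fabp5, Fabp7, Fabp12, Lpar4 and Pla2g10. The other 9 had a value on 1 array, from 0.25 to 2.42, all positive. The largest was Elovl2, an elongase of polyunsaturated fatty acids, at 2.42 on array 2. These values have no replicate.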

How the data were processed

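RNA of primary tumours and liver metastases was amplified with an amino-allyl kit and hybridised to 2 two-colour arrays, per the labels. The authors deposited 1 log ratio per probe and array, read here as log2. Which base, numerator, background correction or normalization was used is not given in the sources used here. The array medians of all values were 0 and -5.53e-06. No intensities were used, and precision is limited by having 2 arrays.

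A value on each array existed for 18837 of 23473 probes. The platform table named 16631 probes with 1 gene and 6842 with none. Symbols were brought up to date with RefSeq's GRCm38.p6 gene table (12622 current, 3947 updated, 62 kept), which renamed 11 of the 92 members. Probes of a gene were averaged, and 3 members had 2 probes. The mean ratio per gene was compared with 0 by limma 3.58.1 (R 4.3.3; lmFit and eBayes, residual degrees of freedom 1, prior 4.06) over 13506 genes, with Benjamini-Hochberg adjustment and a threshold of 0.05. Errors are the SD of the 2 arrays. Tested on simulated data for this comparison with 13506 genes, the fit recovered 44%, 98%, 100% and 100% of changes of 1, 2, 3 and 4 log2 units, with 10 false calls among 181. The simulated noise was normal and drawn from limma's own fitted variance model, with equal spread on both arrays and no dye bias. The share of false calls in the real data therefore cannot be read from it.

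The members, lists, motifs and tests were chosen with earlier results of these data known. CCAAT and TTTAAA were added after the promoters were read. Named genes are the members past the threshold, up to 4 per family with the largest value on the weaker array and the same sign on both, a fixed set of well-known enzymes, members whose probes differ in sign, and companions past the threshold or up to 3 per list. Others, named to complete a gene cluster or a family, were chosen after their values were seen. Neighbours are members with at most 3 genes between them in the RefSeq table. Alternatives changed the centring, scaling, normalization, variance model, minimum fold, unit, gene names, probes per gene, values required, log base and arrays.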

Additional observations from a re-analysis of the deposited data

Results flagged for a closer look

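Values outside the comparison, read on 1 array only, reached at least 1 log2 unit for 4 genes. Elovl2 had 2.42, Fads6, a desaturase relative, 1.26 and Acot5, a peroxisomal thioesterase, 1.07 on array 2. Acss1, the mitochondrial acetyl-CoA synthetase, had 1.04 on array 1. They have no replicate, and the reason for the missing value is not given in the sources used here.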

How the results depend on the processing

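The calls depended on scaling and on the variance model. Scaling to equal spread, quantile normalization and no moderation changed the count of genes called by limma from 391 to 51, 4 and 0, and gave 0, 0 and 0 called members, with 31, 31 and 12 members at an unadjusted p under 0.05, and 0, 0 and 0 called companions (42, 41 and 18 at an unadjusted p under 0.05). A minimum fold of 1.2 left 108 genes called, 3 members and 0 companions (24 at an unadjusted p under 0.05), and the fit on probes 161 genes, 3 members and 2 companions, Ptgs1 and Ppargc1a, which missed the threshold in the report. Acaca and Plpp2 were also lost with a robust prior (adjusted p = 0.051 and 0.051) and with the probe farthest from 0 (0.0505 and 0.0505), where Ppargc1a was called too. The 3 members were Abcd2, Enpp2 and Pla2g2a both times, each called in 7 of 10 tested alternatives, with adjusted p up to 0.484, 0.488 and 0.463. Scd2 and Scd3 were called in 5 of 10. All counts out of 10 include the natural log, which multiplies every value by a constant. It leaves limma's p-values unchanged, so its call was fixed in advance. Members at least 1 log2 unit from 0 on each array numbered 5 after centring, 7 if the log is natural, 8 with values on 1 or both arrays, and 6 to 7 on a single array. The member median was -0.0218 with values on 1 or both arrays and ranged from -0.0869 to -0.0150 on single arrays.

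With symbols as given, the family and list medians were 0.0253 for synthetases, 0.10 for dehydrogenases, 0.0623 for thioesterases, -0.0011 for phospholipases A2 and -0.44 for lipogenesis companions. With a natural log they were 0.0705 for dehydrogenases, 0.78 for the oxidase, -0.22 for carnitine palmitoyltransferases, -0.0375 for phospholipases A2, -0.53 for Enpp enzymes, 0.43 for ABC transporters, -0.35 for regulators, -0.48 for lipogenesis companions and -0.34 for lysophospholipid companions. With values on 1 or both arrays they were 0.72 for oxidases, 0.24 for fatty acid binding proteins and 0.42 for eicosanoid companions. Centring gave 0.0734 for dehydrogenases and -0.0015 for phospholipases A2, and scaling and quantile normalization gave -0.0372 and -0.0382 for the latter. On single arrays, medians ranged from -0.20 to -0.0650 for acyl-CoA synthetases, 0.0629 to 0.0850 for acyl-CoA dehydrogenases, 0.0671 to 0.16 for acyl-CoA thioesterases, -0.12 to -0.0795 for carnitine palmitoyltransferases, -0.0900 to 0.12 for fatty acid binding proteins, -0.52 to -0.24 for fatty acid synthase, elongases and desaturases, 0.0584 to 0.0600 for phospholipases A2, -0.38 to -0.26 for ecto-nucleotide pyrophosphatases and phosphodiesterases, -0.0691 to 0.0300 for peroxins, -0.0600 to 0.15 for eicosanoid companions, -0.28 to -0.23 for lipid transcription regulators, -0.44 to -0.31 for lipogenesis companions, -0.23 to -0.11 for lysophospholipid turnover companions and -0.0537 to 0.11 for mitochondrial beta-oxidation companions. Medians are listed where they moved by at least the SD of the 2 array medians, so sets whose arrays differ can go unlisted. Arrays 1 and 2 gave 0.27 and -0.20 for LPA receptors and -0.02 and -0.30 for sterol companions. They gave 0.01 and -0.19 for uptake and storage companions and -0.035 and 0.16 for peroxisomal companions. The oxidase had 0.46 and 0.62, the HMG-CoA enzyme -0.79 and -0.39, and ABC transporters 0.33 and 0.27. With symbols as given, none of the LPA receptors met the rule, so they have no median. The natural log multiplies every value by a constant, so its medians are the main ones in another unit. Symbols as given change only which genes fall in a family or list and which probes are averaged. The cause of the other shifts was not tested. Of the 85 genes recomputed singly, Pla2g5 alone changed sign under an alternative that keeps both arrays, to -0.0078 when scaled and -0.0055 when quantile normalized. The arrays form 1 group, in which each ratio already sets a tumour against a metastasis. The test of the mean ratio against 0 is therefore paired by array, and no further pairing was possible.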
